A study of Mus musculus with 4 samples.

Results

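The p53 regulators and a set of p53 target genes listed as non-apoptotic were followed in N2a cells, a mouse neuroblastoma line, after manganese treatment. The 38 genes are a literature list of the p53 family, its regulators and these targets, looked up by symbol in the mRNA table. Some of the targets also act in apoptosis, such as the death receptors Fas and Tnfrsf10b and the caspase scaffold Pidd1. All 38 were found, each in 1 row, among 22287 genes. Mn-treated cells had received 300 µM manganese for 48 h, and the untreated N2a cells were the control. Each condition had 1 ribosomal-RNA-depleted total RNA library and 1 small RNA library. The labels give C57BL/6 as the strain of the cells in every library. They also carry 1 treatment text for all libraries, so the titles alone set which were treated. The Mn-treated total RNA library held 14606961 reads on mRNA genes and the untreated library 13972437. Because each condition had a single library, replicate spread is unknown, and a ratio describes how this pair of libraries differed.

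p53, encoded by Trp53, is a transcription factor that is stabilised when DNA is damaged or the cell is otherwise stressed. It switches on genes that stop the cell cycle, repair DNA, adjust metabolism or start apoptosis. MDM2 is both a p53 target and the ubiquitin ligase that marks p53 for degradation, which closes a feedback loop, and the related MDM4 binds and inhibits p53. Because p53 is controlled largely through the stability of its protein, its mRNA level and the levels of its targets are separate readouts. None of the libraries measured protein.

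Of the 38 genes, 29 had at least 20 reads over both libraries and are called measured. Log2 ratios set the Mn-treated library over the untreated one, each as reads plus 0.5 divided by the library total. Fold values of single genes leave out the 0.5, so at low counts they can differ from the log2 ratio. Thresholds were applied to the log2 ratio. Brackets give 95% intervals that cover counting error only. Among measured members 6 were at least 2-fold higher in the Mn-treated library, namely Trp53inp1, Ddb2, Gadd45a, Mdm2, Mdm4 and Rrm2b, where 7.26% of 11872 measured genes were that much higher. None was 2-fold lower, and 1.7% of all measured genes were. At a 1.5-fold threshold 11 members were higher and 3 lower, against 21.6% and 5.97% of all measured genes. In shares, 37.9% of the 29 measured members were 1.5-fold higher and 10.3% lower.

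The median log2 ratio of measured members was 0.20, next to 0.18 for all measured genes, with 15 members above that middle value and 14 below. The members thus lay on both sides of the typical gene, with the lowest at -0.64 and the highest at 1.85. Dividing every ratio by the middle gene's ratio (median-ratio scaling) left 3 members 2-fold higher, Trp53inp1, Ddb2 and Gadd45a, where 4.61% of all genes passed, and none 2-fold lower, where 2.74% passed. At 1.5-fold that scaling gave 9 higher and 6 lower, against 13.4% and 11.3% of all measured genes. In bulk RNA, fewer cells of a type and less RNA per cell cannot be told apart.

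**Figure D1:**
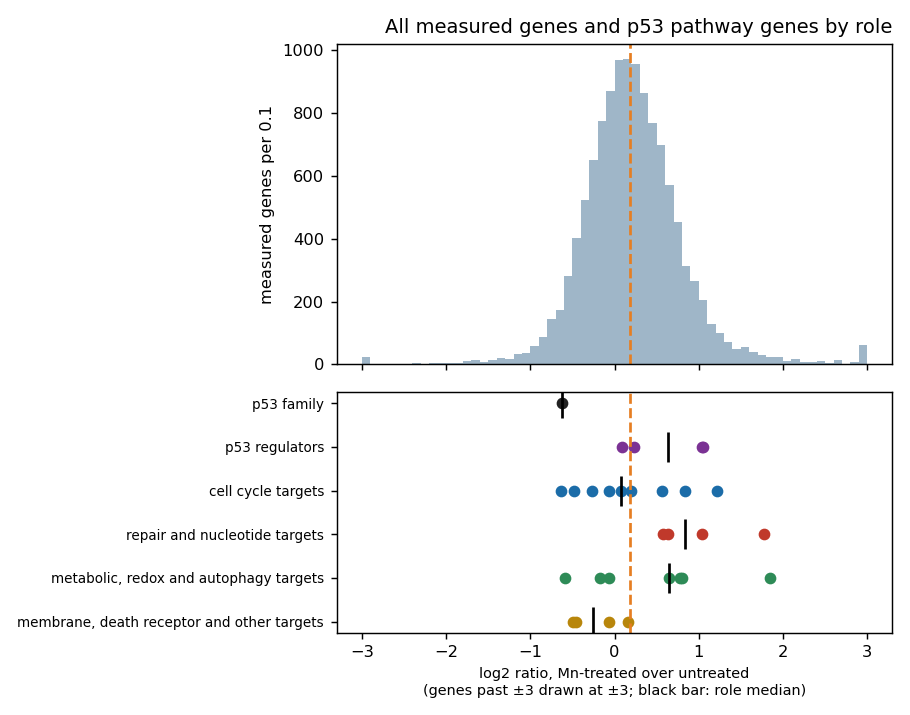
Histogram of the log2 ratio (Mn-treated over untreated) of 11872 measured genes above, and the 29 measured p53 pathway genes as points by role below, with a black bar at each role's median and a dashed line at the median of all genes, 0.18. The repair points all lie right of the dashed line. The points of the membrane, death receptor and other targets all lie left of it. They are Aen, Pidd1, Phlda3 and Zmat3, and no death receptor was measured.

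Trp53 itself was the most abundant member and was lower in the Mn-treated library. It had 2954 reads and 66.6 FPKM in Mn-treated cells, against 4343 reads and 101 FPKM in untreated cells (FPKM, as deposited, scales reads to transcript length and library size). The log2 ratio was -0.62 [-0.69 to -0.55], and 5.29% of measured genes had a lower one. A lower FPKM than that of Trp53 was found for 93.5% of measured genes in Mn-treated cells and 95.5% in untreated cells. The related family members Trp63 and Trp73, which encode p63 and p73, had 0 reads in both libraries. A count of 0 allows a share of up to 2.05e-05% of the mRNA reads in the Mn-treated library and 2.15e-05% in the untreated one. Thus the p53 family was represented in these libraries by Trp53 alone, within that limit.

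Of the 4 regulators, Mdm2 and Mdm4 were higher while Trp53 was lower. Mdm2 had 332 reads and 6.47 FPKM in Mn-treated cells, against 153 reads and 2.98 FPKM in untreated cells. Its ratio was 2.08-fold [1.71 to 2.53], a log2 ratio of 1.05, which exceeds that of 93.6% of measured genes. For Mdm4 there were 172 reads in Mn-treated and 80 in untreated cells, a ratio of 2.06-fold [1.57 to 2.72]. Its estimated counts were fractional, its span overlaps a pseudogene, Gm29257, and its FPKM values of 1.19 in Mn-treated and 0.83 in untreated cells give a smaller log2 ratio of 0.52.

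The amount of Mdm2 relative to Trp53 differed accordingly. Mdm2 FPKM was 0.0972 of Trp53 FPKM in Mn-treated cells and 0.0295 in untreated cells, a 3.30-fold difference. In reads, the log2 ratio of Mdm2 exceeded that of Trp53 by 1.67 [1.38 to 1.97], and that of Mdm4 exceeded it by 1.66 [1.26 to 2.07]. The remaining regulators lay close to the middle gene. Rchy1, the ubiquitin ligase Pirh2 that also acts on p53, had 333 and 272 reads in Mn-treated and untreated cells, at 0.23 [-0.01 to 0.46]. Ppm1d, the phosphatase Wip1 that dephosphorylates p53 and its upstream kinases, had 357 and 320 reads in Mn-treated and untreated cells. It was at 0.09 [-0.13 to 0.32], and this sign turned with median-ratio scaling, at -0.09.

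The windows around the annotated start sites of Trp53, Mdm2, Cdkn1a and Gadd45a are shown because these genes are the p53 gene, its feedback inhibitor and the most abundant and most changed of the listed cell cycle targets. They run from 250 bases before to 50 bases after the start (RefSeq, GRCm38.p6). Capitals mark exact matches of the p53 half-site consensus, a 10-base pattern that reads the same on both strands, so 1 search covers both.
Trp53, chr11:69580109-69580408, plus strand: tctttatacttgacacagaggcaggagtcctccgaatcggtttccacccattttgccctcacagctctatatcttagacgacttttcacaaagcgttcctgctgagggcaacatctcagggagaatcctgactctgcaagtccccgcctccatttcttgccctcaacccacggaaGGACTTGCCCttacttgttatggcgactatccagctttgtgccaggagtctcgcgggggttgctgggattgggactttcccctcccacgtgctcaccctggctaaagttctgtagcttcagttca
Mdm2, chr10:117710709-117711008, minus strand: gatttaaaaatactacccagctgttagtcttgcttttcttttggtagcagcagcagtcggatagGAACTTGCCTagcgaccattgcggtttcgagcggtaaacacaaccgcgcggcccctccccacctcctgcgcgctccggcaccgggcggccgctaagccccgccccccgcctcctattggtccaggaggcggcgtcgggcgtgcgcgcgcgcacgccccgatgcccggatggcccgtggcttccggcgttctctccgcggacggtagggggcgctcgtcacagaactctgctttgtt
Cdkn1a, chr17:29090729-29091028, plus strand: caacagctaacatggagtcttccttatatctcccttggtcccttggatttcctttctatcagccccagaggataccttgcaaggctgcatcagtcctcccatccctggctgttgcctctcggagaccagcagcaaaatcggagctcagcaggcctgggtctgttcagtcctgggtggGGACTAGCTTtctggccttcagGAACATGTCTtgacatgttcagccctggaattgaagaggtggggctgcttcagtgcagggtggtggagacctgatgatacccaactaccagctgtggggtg
Gadd45a, chr6:67037358-67037657, minus strand: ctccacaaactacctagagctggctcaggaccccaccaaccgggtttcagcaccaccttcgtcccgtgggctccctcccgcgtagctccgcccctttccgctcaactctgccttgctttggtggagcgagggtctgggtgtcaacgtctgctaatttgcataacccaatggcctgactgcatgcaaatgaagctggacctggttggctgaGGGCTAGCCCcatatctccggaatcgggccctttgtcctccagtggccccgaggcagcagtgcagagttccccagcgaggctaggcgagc
The matches begin 75 bases before the start in Trp53, 186 in Mdm2 and 40 in Gadd45a, and 73 and 51 in Cdkn1a.

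RefSeq windows were found for 30 of the 38 members, and 11 of these (36.7%) held at least 1 half-site. Over all 27025 genes with a window the share was 9.55%. A pair of half-sites 0 to 13 bases apart was found in 1 member, Cdkn1a, and in 0.074% of all genes. Only exact matches were counted. In Cdkn1a the stretch tgacatgttc, directly after the match nearer the start, departs from the pattern at 1 base and was left unmarked. Every one of the 11 was measured, with a median log2 ratio of 0.20. The 13 measured members with a window and no half-site had a median of -0.06. Neither median includes the 5 measured members without a window, namely Trp53inp1 at 1.85, Ddb2 at 1.77, Rrm2b at 1.03, Xpc at 0.58 and Zmat3 at 0.16. Members with a half-site ran from Trp53 at -0.62 and Aen at -0.49 to Mdm2 at 1.05 and Gadd45a at 1.21. A match is a description of the letters and not a binding site, and p53 also binds outside such windows.

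**Figure D2:**
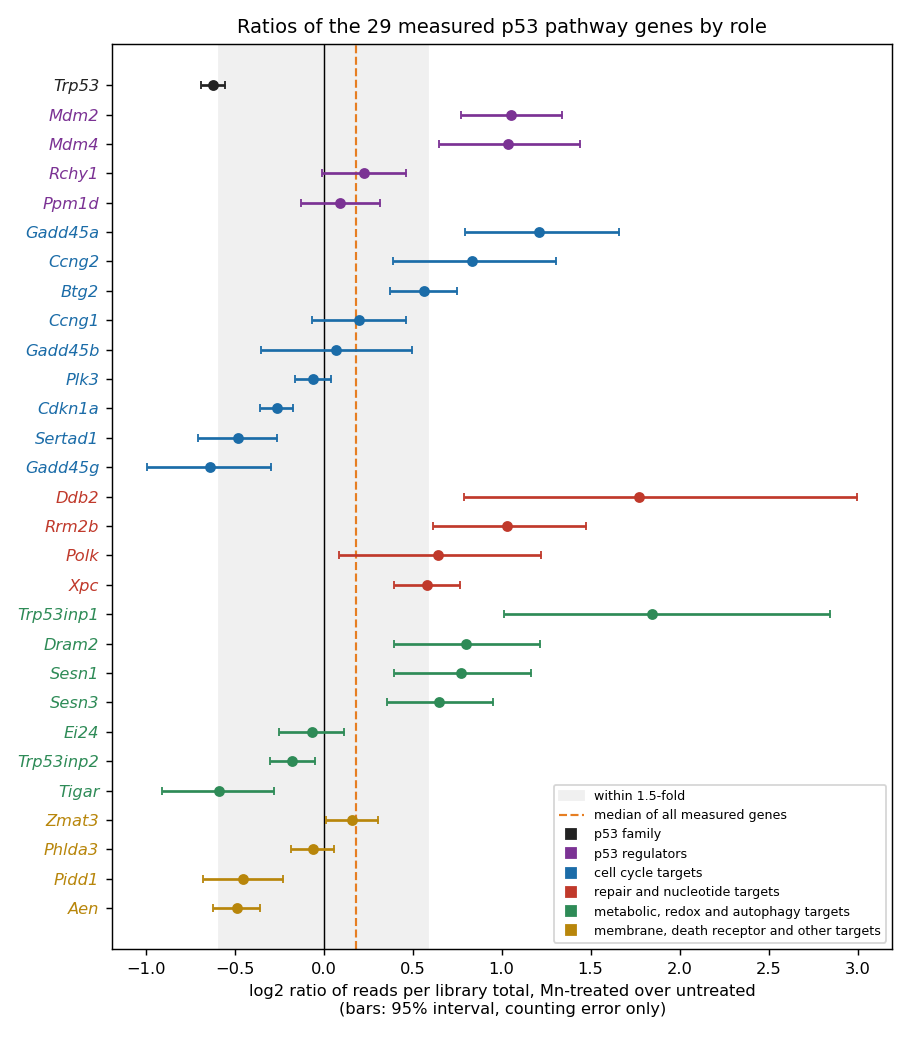
Log2 ratio of reads per library total, Mn-treated over untreated, for the 29 measured p53 pathway genes grouped by role, with bars for the 95% counting interval, a grey band for ratios within 1.5-fold and a dashed line at the median of all measured genes. Trp53 is at -0.62 while Mdm2 and Mdm4 are at 1.05 and 1.04, and the Gadd45 paralogs spread from -0.64 to 1.21.

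The cell cycle targets did not share a direction. Of 11 genes 9 were measured, and 2 of them (22.2%) were 1.5-fold higher and 1 (11.1%) was lower, against 21.6% and 5.97% of all measured genes, so the share higher was near that of all genes. The median log2 ratio was 0.07, or -0.11 with median-ratio scaling. Together they summed to 349 RPM (reads scaled to library size) in Mn-treated and 366 RPM in untreated cells. Cdkn1a, which encodes the CDK inhibitor p21 and is the classical arrest gene downstream of p53, had 1833 reads and 39.5 FPKM in Mn-treated cells, against 2105 reads and 46.6 FPKM in untreated cells. Its log2 ratio was -0.26 [-0.35 to -0.17]. It was abundant in both libraries, with a higher FPKM than 89.0% of measured genes in Mn-treated cells and 90.6% in untreated cells. Relative to Trp53, Cdkn1a FPKM was 0.593 in Mn-treated and 0.461 in untreated cells.

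The 3 Gadd45 genes encode small stress proteins that bind PCNA, p21 and MAP kinase kinase kinases, and they were split. Gadd45a, the member best known as a p53 target, had 158 reads in Mn-treated and 65 in untreated cells, 2.33-fold [1.73 to 3.15]. With FPKM values of 5.23 in Mn-treated and 3.11 in untreated cells, its log2 ratio was 0.75 in place of 1.21. The reverse held for Gadd45g, with 118 reads and 4.46 FPKM in Mn-treated cells, against 176 reads and 6.88 FPKM in untreated cells, a log2 ratio of -0.64 [-0.99 to -0.30]. Gadd45b had 100 reads in Mn-treated and 91 in untreated cells, at 0.07 [-0.35 to 0.50], and at -0.11 with median-ratio scaling. The log2 ratio of Gadd45a exceeded that of Gadd45g by 1.85 [1.30 to 2.42] and that of Gadd45b by 1.14 [0.53 to 1.76]. Gadd45a had 1.17 times the FPKM of Gadd45g in Mn-treated cells and 0.452 times in untreated cells.

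Ccng2, a cyclin G linked to cell cycle exit, had 118 reads in Mn-treated and 63 in untreated cells, 1.79-fold [1.31 to 2.47]. Its paralog Ccng1, a p53 target that recruits phosphatase to MDM2, had 264 and 220 reads in Mn-treated and untreated cells, at 0.20 [-0.06 to 0.46]. Btg2, an antiproliferative gene, was just under the 1.5-fold threshold, with 596 reads in Mn-treated and 386 in untreated cells, 1.48-fold [1.30 to 1.68]. Plk3, a polo-like stress kinase, was abundant and nearly level, with 1616 reads in Mn-treated and 1613 in untreated cells, at -0.06 [-0.16 to 0.04]. Sertad1, a cofactor of E2F and CDK4, had 292 reads in Mn-treated and 390 in untreated cells, at -0.48 [-0.71 to -0.26]. Plk2, a relative of Plk3 and also a p53 target, had 1 read in Mn-treated and 0 in untreated cells. Rprm, an inhibitor of entry into mitosis, had 0 reads in both. Neither could be compared at this depth.

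In the repair and nucleotide group all 4 genes were measured, and all 4 were higher in Mn-treated cells under both scalings. The median log2 ratio was 0.84, or 0.65 with median-ratio scaling, and 3 of the 4 passed 1.5-fold, where 21.6% of all measured genes did. With that scaling 2 passed, where 13.4% of all measured genes did. Ddb2, the damage sensor that starts nucleotide excision repair in chromatin, had 37 reads and 0.79 FPKM in Mn-treated cells, against 10 reads and 0.20 FPKM in untreated cells, 3.54-fold [1.73 to 7.98]. Xpc, which recognises the distorted helix in the same pathway, had 602 reads in Mn-treated and 385 in untreated cells, a log2 ratio of 0.58 [0.39 to 0.77], just under 1.5-fold. These are the 2 recognition factors of global nucleotide excision repair on the list, and Xpc was the far more abundant, at 6.65 FPKM in Mn-treated and 4.38 FPKM in untreated cells.

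Rrm2b, the p53-inducible subunit of ribonucleotide reductase that supplies nucleotides outside S phase, had 146 reads in Mn-treated and 68 in untreated cells, 2.05-fold [1.53 to 2.78]. Its FPKM values of 2.13 in Mn-treated and 0.62 in untreated cells give a larger log2 ratio, 1.78 in place of 1.03. Polk, a DNA polymerase that copies past lesions, had 72 and 44 reads in Mn-treated and untreated cells, 1.57-fold [1.06 to 2.33]. With library totals all 4 intervals lay above a ratio of 1. For Polk this depended on the scale. The lower end of its interval was a log2 ratio of 0.09, and median-ratio scaling takes off 0.18. The span of Ddb2 overlaps that of Acp2 in the RefSeq annotation, and whether the counting used strand is not given in the sources used here, so reads of Ddb2 could be shared with that gene. Rrm2b overlaps a pseudogene, Gm3362, and its value has the same uncertainty. The spans of Gadd45a, Mdm4, Sertad1, Xpc, Ei24 and Zmat3 overlap long noncoding RNA genes, that of Plk3 overlaps Tctex1d4 and that of Rchy1 overlaps Thap6.

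The metabolic, redox and autophagy group was divided between genes near or below level and genes well above it. Of 8 genes 7 were measured, with a median log2 ratio of 0.65, or 0.47 with median-ratio scaling. At 1.5-fold 4 (57.1%) were higher and 1 (14.3%) lower, against 21.6% and 5.97% of all measured genes. With the deposited FPKM the median was 0.23, and Sesn3 was the middle gene on both scales. Trp53inp1, a stress protein that promotes p53 activity and autophagy, had the highest ratio of all measured members. It had 54 reads and 0.85 FPKM in Mn-treated cells, against 14 reads and 0.11 FPKM in untreated cells, 3.69-fold [2.02 to 7.19]. Its ratio exceeded those of 98.5% of measured genes. The paralog Trp53inp2, an autophagy factor, had 951 reads and 10.04 FPKM in Mn-treated cells, against 1027 reads and 11.1 FPKM in untreated cells, at -0.17 [-0.30 to -0.05]. The log2 ratio of Trp53inp1 exceeded that of Trp53inp2 by 2.02 [1.18 to 3.03], while Trp53inp1 was at 0.0847 of the FPKM of its paralog in Mn-treated cells and 0.00992 in untreated cells.

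Sestrins are stress proteins that restrain the growth kinase mTORC1. Sesn1 had 163 reads in Mn-treated and 91 in untreated cells, 1.71-fold [1.32 to 2.24]. Sesn3 had 248 and 151 reads in Mn-treated and untreated cells, 1.57-fold [1.28 to 1.94]. The third sestrin, Sesn2, is not on the list. It was the most abundant of the 3 at 31.8 FPKM in both libraries, with 2730 reads in Mn-treated and 2635 in untreated cells, a log2 ratio of -0.01. That of Sesn1 exceeded it by 0.79 [0.40 to 1.18] and that of Sesn3 by 0.66 [0.36 to 0.98].

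Dram2, a lysosomal membrane protein of autophagy, had 144 reads in Mn-treated and 79 in untreated cells, 1.74-fold [1.32 to 2.32], and its span overlaps that of Cept1. Its relative Dram1, the better known p53 target, had 0 reads in both libraries. Tigar, which lowers glycolytic flux and raises NADPH, was the lowest of the group, with 145 reads and 4.14 FPKM in Mn-treated cells, against 209 reads and 6.86 FPKM in untreated cells. Its log2 ratio was -0.59 [-0.91 to -0.28]. Ei24, an autophagy protein of the endoplasmic reticulum, had 501 and 502 reads in Mn-treated and untreated cells, at -0.07 [-0.25 to 0.11]. The group thus held the highest measured member, Trp53inp1, and the third lowest, Tigar.

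**Figure D3:**
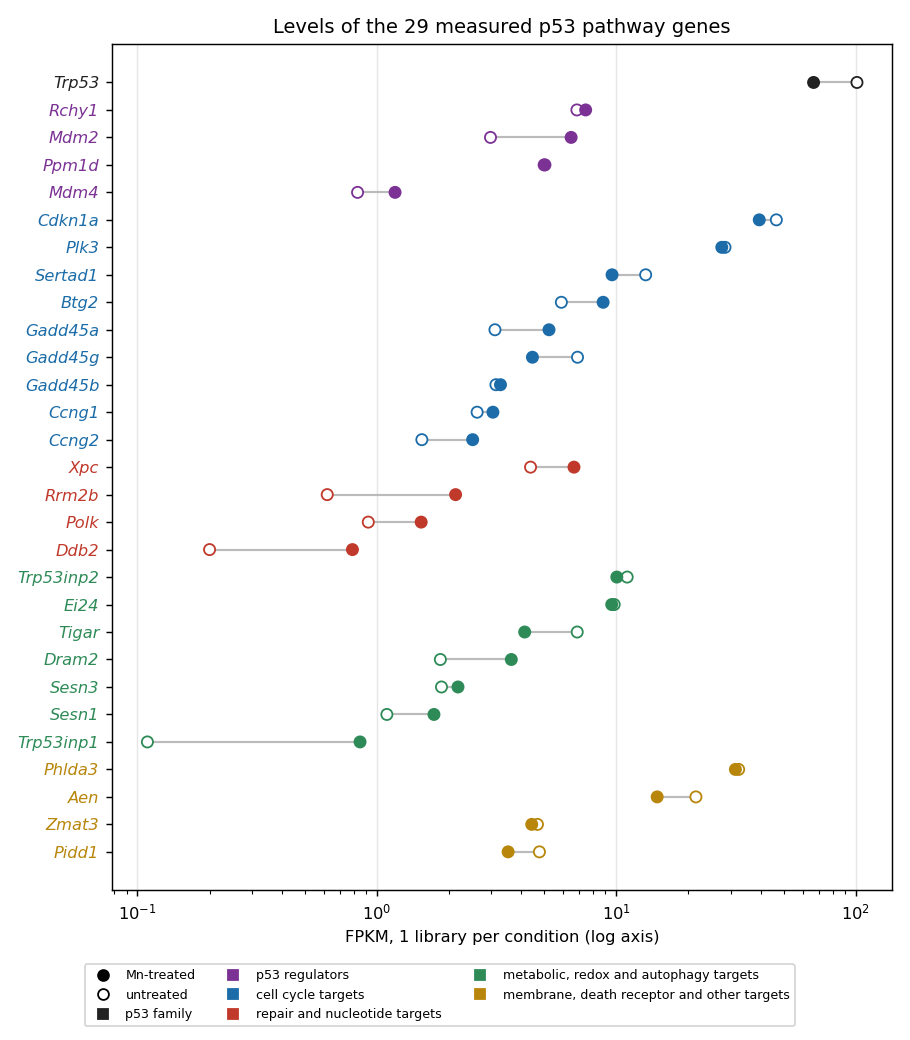
FPKM of the 29 measured p53 pathway genes on a log axis, with a filled point for the Mn-treated and an open point for the untreated library, grouped by role and ordered by the Mn-treated level. Trp53, at 66.6 FPKM in Mn-treated and 101 FPKM in untreated cells, tops the list, and the widest gaps belong to low genes such as Trp53inp1, at 0.85 FPKM in Mn-treated and 0.11 FPKM in untreated cells.

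None of the 4 measured membrane, death receptor and other targets passed 1.5-fold, where 21.6% of all measured genes were higher and 5.97% lower. All 4 lay below the median of all measured genes, 0.18, Zmat3 only just. Their median log2 ratio was -0.26. Aen, a nuclease that p53 induces, had 804 reads in Mn-treated and 1079 in untreated cells, at -0.49 [-0.62 to -0.36], on fractional counts. Pidd1, the scaffold that activates caspase-2, had 291 and 381 reads in Mn-treated and untreated cells, at -0.45 [-0.68 to -0.23]. Both passed 1.5-fold lower with median-ratio scaling, where 11.3% of all measured genes did. Phlda3, which blocks AKT at the membrane, was the second most abundant target among the 38 listed genes, at 31.4 FPKM in Mn-treated and 32.4 FPKM in untreated cells, with a log2 ratio of -0.06 [-0.18 to 0.06]. Zmat3, an RNA-binding protein, had 839 and 718 reads in Mn-treated and untreated cells, at 0.16 [0.02 to 0.31]. It was at -0.02 with median-ratio scaling and -0.08 in FPKM.

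The death receptors were at the edge of detection. Fas had 3 reads in Mn-treated and 1 in untreated cells, 2.87-fold [0.23 to 151]. Tnfrsf10b, the mouse TRAIL receptor, had 1 read in Mn-treated and 0 in untreated cells. Eda2r, a receptor of the same superfamily, and Perp, a membrane protein of cell junctions, had 0 reads in both. With Trp63, Trp73, Rprm and Dram1, that made 6 members with 0 reads in both libraries, and 9 that were not measured.

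Across roles, the repair median of 0.84 and the metabolic median of 0.65 stood above the 0.07 of the cell cycle targets. The regulators had a median of 0.63, with no member near it. Mdm2 at 1.05 and Mdm4 at 1.04 lay above it, and Rchy1 at 0.23 and Ppm1d at 0.09 below. With the deposited FPKM the medians were 1.26 (repair), 0.32 (regulators), 0.23 (metabolic) and 0.06 (cell cycle). The ranges of the log2 ratios from reads overlapped. The repair genes ran from 0.58 to 1.77, the metabolic genes from -0.59 to 1.85 and the cell cycle genes from -0.64 to 1.21. Groups of 4 to 9 genes in 2 libraries allow no test of the difference between roles.

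Ratio and level were related among members. Members with a low level tended to have the higher ratio, with a Spearman correlation of -0.78 between the log2 ratio and the mean log2 FPKM over the 29 genes. Over 11833 measured genes with an FPKM above 0 in both libraries it was -0.31. All these values share the same 2 libraries. Of the 8 members with a mean of 500 reads or more, none was 1.5-fold higher, against 10.7% of all such genes, and their median was -0.12 beside 0.07. Of the 16 with a mean of at least 100 and under 500 reads 7 were (43.8%, against 23.9% of all such genes), and of the 5 with fewer reads 4 were (80.0%, against 36.6%). The part of expression level in the role medians was not tested.

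**Figure D4:**
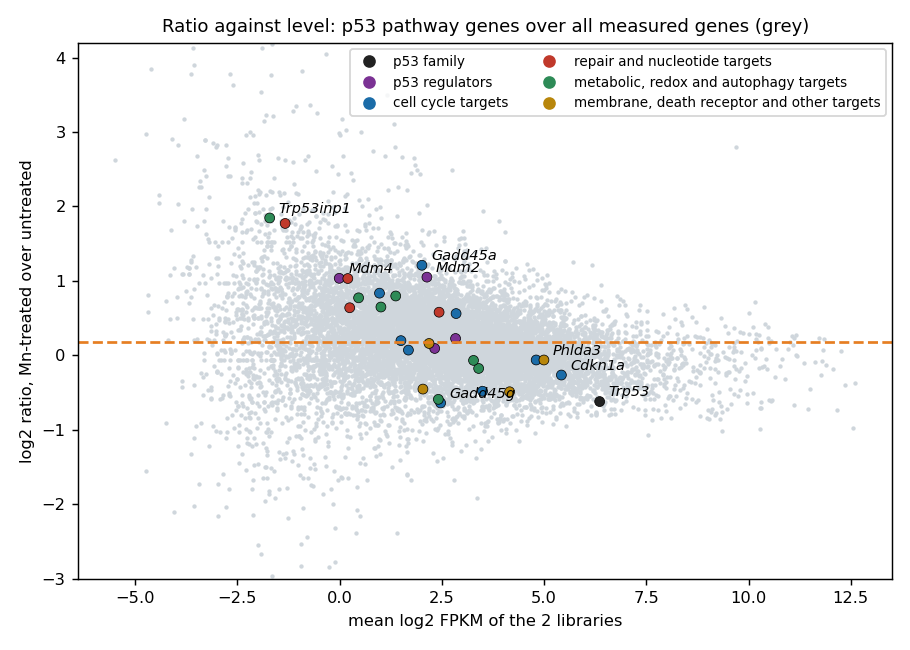
Log2 ratio (Mn-treated over untreated) against mean log2 FPKM of the 2 libraries for 11872 measured genes in grey and the 29 measured p53 pathway genes in colour, with a dashed line at the median of all measured genes. FPKM below 0.01 is drawn at 0.01, and 52 genes lie outside the vertical axis. The coloured points run from Trp53inp1 at the upper left to Trp53 at the lower right.

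Reads and FPKM gave different ratios for some members. After the median difference of 0.02 over all genes, the log2 ratios from FPKM and from reads differed by over 0.3 for 5 of the 29 measured members (17.2%), against 13.5% of 11833 genes. These were Trp53inp1, Rrm2b, Mdm4, Gadd45a and Sesn3. Trp53inp1 had 63.5 reads per FPKM unit in Mn-treated and 127 in untreated cells, and Rrm2b had 68.5 and 110. The ratios of both were larger in FPKM, at 2.95 and 1.78. The opposite held for Mdm4 with 145 reads per FPKM unit in Mn-treated and 96.1 in untreated cells, for Gadd45a with 30.2 and 20.9, and for Sesn3 with 114 and 81.2. For Trp53 the values were 44.4 in Mn-treated and 43.0 in untreated cells, and for Mdm2 51.3 in both. The direction of all 5 was the same on both scales.

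**Figure D5:**
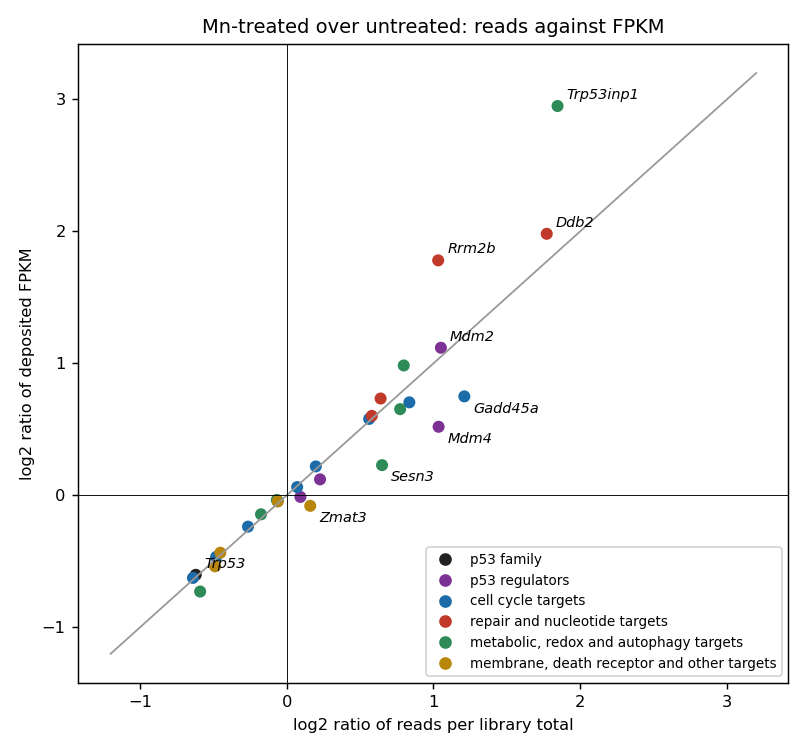
Log2 ratio of deposited FPKM against log2 ratio of reads per library total, both Mn-treated over untreated, for the 29 measured p53 pathway genes coloured by role, with a diagonal where both are equal. Trp53inp1 and Rrm2b lie well above the diagonal, at 2.95 and 1.78 in FPKM, and Mdm4, Gadd45a and Sesn3 lie below it.

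Other genes of the pathway were read from lists, to be set beside the median of 0.18 and the 21.6% higher and 5.97% lower by 1.5-fold among all measured genes. Of 26 kinases and cofactors upstream of p53, 24 were in the table and measured, with a median log2 ratio of 0.24. By 1.5-fold 6 were higher (25.0%) and 2 lower (8.33%). Atm, the kinase that signals DNA double-strand breaks to p53, had 267 reads in Mn-treated and 136 in untreated cells, at 0.91 [0.61 to 1.22]. Trim24, a ubiquitin ligase of p53, was at 0.84, while the checkpoint kinase Chek1 was at -0.77 and the acetyltransferase Kat8, on fractional counts, at -1.33. Of 32 other reported p53 targets 30 were measured, with a median of 0.14, and 2 were higher (6.67%) and 1 lower (3.33%) by 1.5-fold. The highest were Lpin1, a phosphatidate phosphatase, at 0.89 and the excision repair nuclease Ercc5 at 0.64 [0.34 to 0.96]. The lowest were the glutaminase Gls2 at -1.22, on fractional counts, and Prkab1, a subunit of AMPK, at -0.55.

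A separate list of apoptotic p53 targets, given for contrast, had 9 of 11 genes measured, with a median of 0.06. By 1.5-fold 1 was higher (11.1%) and 2 were lower (22.2%), against 21.6% and 5.97% of all measured genes. Bnip3l, a mitophagy receptor, was at 0.78 and Shisa5 at 0.43. Siva1 was at -0.90, and Bbc3, which encodes PUMA, had 5 reads in Mn-treated and 80 in untreated cells, on fractional counts. The log2 ratio of Bbc3 was -3.94 [-5.73 to -2.78], and 0.126% of measured genes had a lower one. The 22 cycle genes that active p53 lowers through the DREAM complex, together with the subunits of that complex, had a median of -0.10. By 1.5-fold 0 were higher (0%) and 3 lower (13.6%). E2f1, on fractional counts, was at -1.31 and Mybl2, a subunit of the activating form of the complex, at -1.15. Bub1 was at 0.45 and Lin9 at 0.26.

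The microRNAs linked to p53 were read from the small RNA libraries, where the log2 ratio uses the library totals of 10402153 in Mn-treated and 10914338 in untreated cells that the deposited TPM values imply (TPM scales tags to library size). Of 14 listed names 13 had an arm in the table, with 25 arms in all, of which 19 had at least 20 reads. None was 1.5-fold higher and 2 were lower, where 15.4% and 13.2% of 605 measured mouse miRNAs were. The mature sequences of 3 pairs that share a seed (bases 2 to 8, in capitals) are shown, because members of a pair were counted apart (RefSeq, GRCm38.p6).
miR-34a-5p: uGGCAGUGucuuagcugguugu
miR-34b-5p: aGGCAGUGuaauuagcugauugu
miR-192-5p: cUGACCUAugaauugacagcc
miR-215-5p: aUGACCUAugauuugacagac
miR-15a-5p: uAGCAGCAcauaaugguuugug
miR-16-5p: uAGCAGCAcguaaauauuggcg
The first pair belongs to the miR-34 family, the best known microRNA targets of p53, and it was scarce. miR-34a-5p had 14 reads in Mn-treated and 12 in untreated cells, at 0.28 [-0.93 to 1.53], and miR-34b-5p had 0 in Mn-treated and 3 in untreated cells. miR-34c-5p was the most abundant of the family, with 118 reads in Mn-treated and 134 in untreated cells, at -0.11 [-0.48 to 0.25]. A 1.5-fold difference of miR-34a was not detectable at this depth, while the interval of miR-34c lay within 1.5-fold.

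In the second pair miR-192-5p had 3370 and 3291 reads in Mn-treated and untreated cells, at 0.10 [0.03 to 0.17], and miR-215-5p had 27 and 20, at 0.49 [-0.39 to 1.41]. The third pair was unequal. miR-15a-5p had 71 reads in Mn-treated and 124 in untreated cells, at -0.73 [-1.18 to -0.30], whereas miR-16-5p had 6850 and 6688, at 0.10 [0.06 to 0.15]. The second arm lower by 1.5-fold was miR-504-5p, which targets Trp53 in human cells, with 5 reads in Mn-treated and 15 in untreated cells, and its interval of -3.33 to 0.02 reached 0. miR-143-3p, whose maturation p53 promotes in human cells, was the most abundant listed arm with 567599 and 494614 reads in Mn-treated and untreated cells, at 0.27. The opposite arm miR-143-5p was also at 0.27, and both arms of the clustered miR-145a were higher, miR-145a-5p at 0.44 [0.32 to 0.56] and miR-145a-3p at 0.45 [0.30 to 0.60].

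The remaining measured arms lay within 1.5-fold. miR-194-5p was at 0.05, miR-107-3p at -0.28, miR-16-1-3p at -0.34, miR-16-2-3p at -0.49 and miR-15a-3p at -0.50. Of miR-125b, also among the listed p53-linked names, the main arm miR-125b-5p was at 0.21 with 10067 and 9116 reads in Mn-treated and untreated cells. Its opposite arms differed in direction, with miR-125b-1-3p at -0.50 [-0.54 to -0.45] and miR-125b-2-3p at 0.58 [0.16 to 1.01].

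Markers of the labelled cell type were present in both libraries. Of 14 neuroblastoma and neuron markers 13 were measured. Their summed level was 3530 RPM in Mn-treated and 3391 in untreated cells, with Ncam1 at 1.15, Chga at 0.52, Mycn at -0.31 and Isl1 at -0.88. Of 15 markers of glia, blood, endothelium, liver, muscle, fibroblasts and epithelium 5 were measured and 5 had 0 reads in both libraries (Ptprc, Aif1, Alb, Epcam and Myh6). Their sum was 34.6 RPM in Mn-treated and 27.3 in untreated cells, and Mbp was the largest of them, with 309 and 189 reads in Mn-treated and untreated cells. The lowest of the measured ones were Aldh1l1 at -0.31 and Col1a1 at -0.41. The part of these markers in the values above was not tested.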

How the data were processed

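Total RNA and small RNA of Mn-treated and untreated N2a cells were sequenced, with 1 library per condition and RNA class. Bowtie2, StringTie, fastp 0.18.0 and the build mm9 are named, per the submitters' processing notes, with no role or order. No source used here gives the counting program. The authors deposited estimated counts per gene (fractional for 13.3% of genes) and FPKM, whose log2 ratio with 0 written as 0.001 is the deposited log2 fold change. They also deposited a p-value per gene from a test that the file headers do not name, which was not used. The deposited circRNA table holds junction read counts with RPM values, a log2 fold change and a p-value, and the deposited small RNA table holds read counts and TPM. The lncRNA table was not used here.

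Estimated counts were rounded. Log2 ratios used a prior count of 0.5 and library totals, with exact conditional binomial (Clopper-Pearson) 95% intervals (Python 3.11.15, scipy 1.17.1). Fold values of single genes used no prior count. Reads copied by PCR and carrying no molecular identifier are not independent, so the intervals, and the floor of 3 counts, cover counting error only. Differences between log2 ratios of 2 genes have exact conditional odds-ratio intervals. The ratio step was tested on simulated counts that held counting error and no replicate spread. Changed genes were placed only among those with at least 100 reads over both libraries. Recovery of a change was thus not tested for members with fewer reads, such as Ddb2 and Trp53inp1. No test across samples was possible with 1 library per group. Members and lists were chosen with earlier results of these data known. Every member is given. Of other lists the text names up to 2 highest and 2 lowest measured genes, besides each microRNA arm with 20 reads over both libraries. Sesn2 and miR-34b-5p fall outside that rule and were chosen after their values were seen. Some markers that the rule covers are not reported here. Alternatives were median-ratio and TMM scaling (edgeR 4.0.16), FPKM with pseudocounts of 0.1 and 1, minimums of 1 and 100 reads, a prior count of 1, and unrounded counts.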

Additional observations from a re-analysis of the deposited data

How the results depend on the processing

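With 1 library per condition, depth and scaling limit these results. Of the 29 measured members 3 changed sign under an alternative (Ppm1d, Gadd45b and Zmat3), and 0 of those past 1.5-fold did. The count of members 2-fold higher was 6. It was 3 with median-ratio or TMM scaling and 0 with FPKM and a pseudocount of 1, which shrinks low genes by construction. The count 1.5-fold higher was 11, and 5 with FPKM and a pseudocount of 1. The count 1.5-fold lower was 3, and 6 with either other scaling. The median of the cell cycle targets was 0.07, and -0.11 with median-ratio and -0.10 with TMM scaling. The median of the metabolic, redox and autophagy targets was 0.65. It was 0.22 and 0.15 with FPKM and pseudocounts of 0.1 and 1, and 0.29 with a minimum of 100 reads, which leaves out Trp53inp1. The cause of the other shifts was not tested. No paired analysis was possible because each condition had 1 library, and for the same reason no replicate could be left out.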

Other observations

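Circular RNAs of the members were rare. Of 2253 circRNAs 3 had a member as host gene, and 0 reached 10 junction reads over both libraries. Ppm1d hosted 2 of them, one with 2 junction reads in Mn-treated and 0 in untreated cells and one with 1 in Mn-treated and 2 in untreated cells. Zmat3 hosted 1, with 0 junction reads in Mn-treated and 3 in untreated cells.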
